A study of Mus musculus with 2 samples.

Results

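Potassium channel genes were followed here through the open chromatin of the embryonic mouse retina. The members are the 94 protein-coding genes whose symbols start with Kcn in GENCODE release M21, out of 21938 protein-coding genes on the nuclear chromosomes, and they were taken by symbol alone, without use of any measured value. DNase-seq maps accessible chromatin, where DNase I cuts the DNA readily, which is for the most part at promoters, enhancers and insulators. The data hold 1 group, healthy retina from mouse embryos of the strain labelled B6NCrl at embryonic day 14.5, with male and female tissue pooled and no treatment, in 2 biological replicates. The replicates are separate biosamples under 1 donor label, and replicate 1 was also run on a sequencer model that replicate 2 was not, so that instrument and replicate cannot be told apart. How many embryos were pooled is not given in the sources used here.

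Potassium channels let potassium ions leave or enter a cell, and by doing so they set the resting potential, end action potentials and shape firing patterns. Each subfamily letter of the Kcn symbols stands for a kind of subunit: voltage-gated pores (Kcna, Kcnb, Kcnc, Kcnd, Kcnh and Kcnq), silent subunits that work only in a complex with voltage-gated ones (Kcnf, Kcng, Kcns and Kcnv), inward rectifiers (Kcnj), two-pore leak channels (Kcnk), channels opened by calcium, sodium or pH (Kcnma, Kcnn, Kcnt and Kcnu) and auxiliary subunits that bind the pores (Kcnab, Kcne, Kcnip and Kcnmb). In the mature retina they are known for the light response of photoreceptors, the firing of ganglion cells and the uptake of potassium by Müller glia, a cell type that is born after the age studied here.

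Strong peaks near Kcn genes included promoters of the auxiliary subunit gene Kcnab2 and the inward rectifier gene Kcnj2 and distal peaks nearest to Kcnn1 and Kcnh7. Their sequences are given 5′ to 3′ on the forward strand of GRCm38 (the same assembly as mm10), read from the RefSeq copy of that genome at the coordinates of replicate 1. They are shown as examples of high-ranking peaks, 2 at promoters and 2 distal, whose values follow with the results. Capitals mark matches, on either strand, to the words GGGCGG (a GC box, bound by Sp factors) and ATTGGC (bound by NFY). The Kcnab2 peak at chr4:152477536-152477685 held 3 matches to ATTGGC, the Kcnj2 peak at chr11:111066036-111066185 held both words, the Kcnn1 peak at chr8:70865656-70865805 held GGGCGG and the Kcnh7 peak at chr2:63574156-63574305 held none of the words searched.
Kcnab2 promoter: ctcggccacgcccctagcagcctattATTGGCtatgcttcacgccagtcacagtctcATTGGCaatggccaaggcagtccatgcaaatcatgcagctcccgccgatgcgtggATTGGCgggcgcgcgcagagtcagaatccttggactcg
Kcnj2 promoter: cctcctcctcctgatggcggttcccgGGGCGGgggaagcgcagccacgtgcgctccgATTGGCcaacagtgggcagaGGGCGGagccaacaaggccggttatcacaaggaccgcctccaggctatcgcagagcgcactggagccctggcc
Kcnn1 distal: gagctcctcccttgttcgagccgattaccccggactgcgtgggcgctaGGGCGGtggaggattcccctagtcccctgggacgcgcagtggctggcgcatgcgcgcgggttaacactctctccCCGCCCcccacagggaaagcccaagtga
Kcnh7 distal: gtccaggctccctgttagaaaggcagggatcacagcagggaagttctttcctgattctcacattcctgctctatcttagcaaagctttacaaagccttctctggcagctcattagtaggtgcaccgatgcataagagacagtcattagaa

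A second set of peaks held parts of the site of REST, a zinc finger repressor that keeps neuronal genes silent outside neurons and whose known targets include many ion channel genes. The parts searched were TTCAGCACC (left) and GGACAGCGC (right), on both strands. In the full site the left part is followed, after a gap of 2 bases, by GGACA and the rest of the right part. Capitals here mark the left part, and GGACA where it follows the left part at that spacing (GGTGCTGAA and TGTCC are the same letters read from the other strand). The first 2 sequences are promoter peaks of Kcnh4 (chr11:100758956-100759105) and Kcns2 (chr15:34837416-34837565), and the others are distal peaks nearest to Kcnh2 (chr5:24357596-24357745), Kcnd3 (chr3:105275376-105275525) and Kcna3 (chr3:106962596-106962745).
Kcnh4 promoter: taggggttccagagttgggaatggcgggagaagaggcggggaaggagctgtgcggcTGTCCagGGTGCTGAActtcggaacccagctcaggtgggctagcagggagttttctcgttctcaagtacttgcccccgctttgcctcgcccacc
Kcns2 promoter: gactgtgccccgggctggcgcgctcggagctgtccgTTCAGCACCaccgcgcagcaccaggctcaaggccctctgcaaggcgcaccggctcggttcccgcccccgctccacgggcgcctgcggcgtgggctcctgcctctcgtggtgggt
Kcnh2 distal: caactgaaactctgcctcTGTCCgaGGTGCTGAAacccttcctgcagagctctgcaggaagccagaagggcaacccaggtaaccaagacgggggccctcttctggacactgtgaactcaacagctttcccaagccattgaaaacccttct
Kcnd3 distal: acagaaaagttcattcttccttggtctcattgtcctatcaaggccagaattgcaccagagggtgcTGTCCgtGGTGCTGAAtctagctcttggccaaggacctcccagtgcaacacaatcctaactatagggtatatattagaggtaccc
Kcna3 distal: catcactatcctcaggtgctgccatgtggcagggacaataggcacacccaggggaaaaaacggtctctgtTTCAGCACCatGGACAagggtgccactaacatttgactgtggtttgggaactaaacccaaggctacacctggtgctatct

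The files hold peaks 150 bp wide, 165269 in replicate 1 and 219308 in replicate 2, each with a score given by the authors whose meaning is not stated. The score was therefore used only to rank peaks within a library, where 100 is the strongest peak, and equal scores share a rank. The numbers of reads were not in the files, so depth is unknown and a missing peak is not evidence of closed chromatin. Markers of the labelled tissue were in place. All 8 progenitor, 6 ganglion cell and 5 photoreceptor precursor genes checked had a promoter peak in both replicates, and 3 of 6 pigment epithelium, 1 of 5 lens, 2 of 5 muscle, 2 of 5 endothelium, 1 of 5 erythroid and 0 of 5 microglia and immune genes did. The part of other cell types in the Kcn peaks was not tested.

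Most Kcn genes had a promoter peak at this age, and are called open for it. A promoter peak, meaning a peak that overlaps a window of 1000 bp up- and downstream of a transcription start site (TSS) of the gene, was present at 81 of 94 Kcn genes (86.2%) in replicate 1, against 69.7% of all protein-coding genes. In replicate 2 it was present at 82 Kcn genes (87.2%), against 71.3% of all protein-coding genes. Both replicates had one at 80 Kcn genes (85.1%, exact Clopper-Pearson 95% interval 76.3 to 91.6, which covers counting error only), against 68.8% of all protein-coding genes. Of the other 14 members, Kcnk9 had a promoter peak in replicate 1 only, Kcnj16 and Kcnk6 in replicate 2 only, and 11 had none in either.

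These promoters were open but seldom strong. The promoter rank of a gene, the within-library percentile of its strongest promoter peak, came to a median of 82.7 (replicate 1) and 84.1 (replicate 2) over the open Kcn genes, against 95 and 95.9 over all open protein-coding genes. Ranks of 95 or more were held by 7.41% of open Kcn genes in replicate 1 (6 genes) and 8.54% in replicate 2 (7 genes), against 49.7% and 55.7% of all open genes. The range from 75 to 90 held 45.7% and 48.8% of open Kcn genes, against 17.0% and 15.4% of all open genes. Kcn genes did not have fewer promoter peaks: the median open Kcn gene had 3 in each replicate, against 2 and 3 over all open genes. The hotspots over their promoters, the wider regions of cutting that the authors called, covered a median of 861 bp and 1382 bp at open Kcn genes, against 1134 bp and 1429 bp at all open genes.

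**Figure D1:**
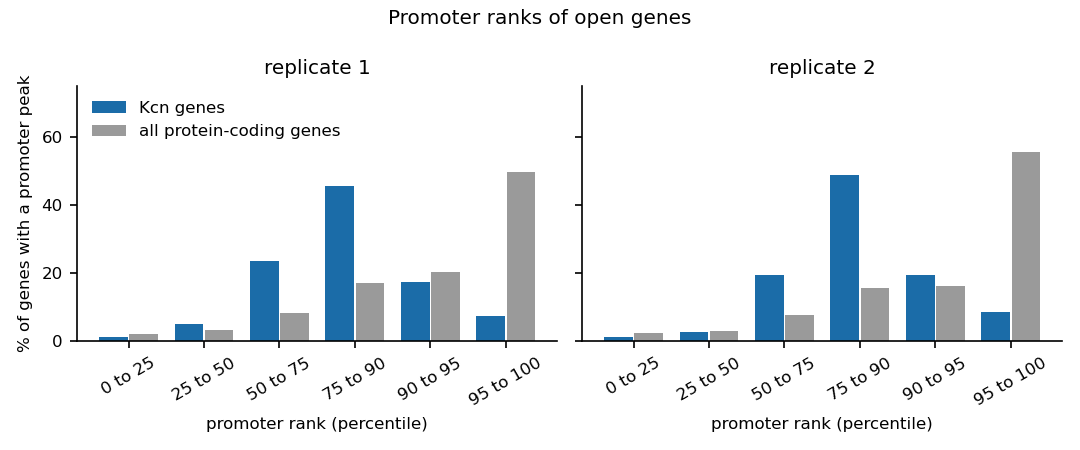
Share of open genes (percent, vertical axis) by promoter rank within the library (percentile range, horizontal axis) in replicate 1 and replicate 2, for Kcn genes (blue, left bar of each pair) and all protein-coding genes (grey). The highest Kcn bar is that for ranks from 75 to 90, with 45.7% and 48.8%, and the highest bar of all genes is that from 95 to 100, with 49.7% and 55.7%.

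The 2 replicates gave similar ranks at most members. Of the 80 Kcn genes open in both, 54 had ranks that differed by 5 or less, with a median absolute difference of 2.55. The rank was higher in replicate 2 at 50 genes, equal at 3 and lower at 27. The widest gaps, in each case with the higher rank in replicate 2, were 24.0 at Kcng4, 22.5 at Kcnv2, 17.8 at Kcnd1 and 16.1 at Kcnj5. The strongest promoter peaks of both replicates overlapped at 65 of the 80 genes. Their centres lay a median of 99.0 bp from the nearest TSS of the gene in replicate 1 and 94.0 bp in replicate 2, and within 200 bp at 55 of 81 and 57 of 82 open genes. No such shares over all open protein-coding genes are given here. Whether Kcn genes differ from them in these measures was not tested.

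The 11 members without a promoter peak had few CpG at the 5′ end, and among genes with few CpG a larger share of Kcn genes than of all genes was open. CpG content was measured as the observed number of CpG over the number given by base composition, within 500 bp of the gene's 5′ end, and all genes were split into 3 bins of equal size. In the lowest bin 15 of 27 Kcn genes (55.6%, 35.3 to 74.5) were open in both replicates, against 22.7% of all genes in that bin (21.7 to 23.7). In the middle bin all 44 Kcn genes were open (100%, 92.0 to 100), against 84.7% of all genes (83.9 to 85.5). In the highest bin 21 of 23 Kcn genes were open in both (91.3%, 72.0 to 98.9), against 98.9% of all genes (98.6 to 99.1), and the exceptions were Kcnk6 and Kcnk9, each open in 1 replicate. The intervals are exact and treat genes as separate draws, although several members lie in clusters of related genes.

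**Figure D2:**
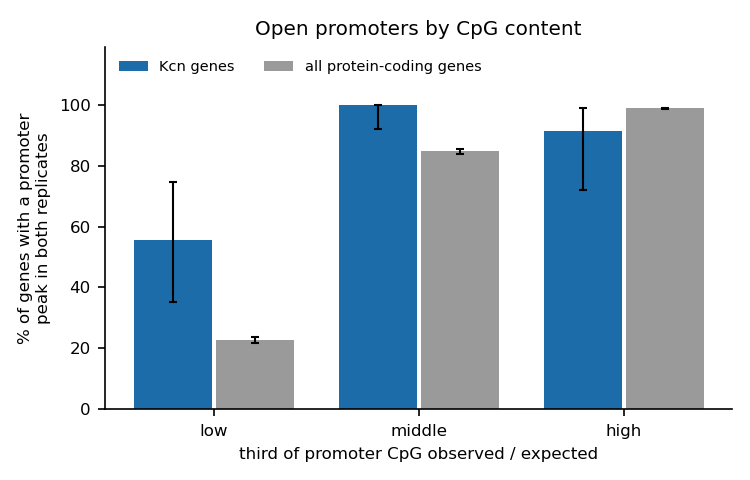
Share of genes with a promoter peak in both replicates (percent, vertical axis) in 3 equal bins of promoter CpG observed over expected (horizontal axis), for Kcn genes (blue, left bar of each pair) and all protein-coding genes (grey); error bars are exact 95% Clopper-Pearson intervals. Kcn genes stood at 55.6%, 100% and 91.3% from the low to the high bin, and all genes at 22.7%, 84.7% and 98.9%. Within a bin the CpG content of Kcn genes and all genes is not matched (medians of 0.236 and 0.156 in the low bin).

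The lower median rank of open Kcn promoters was seen in both replicates in the middle and highest bins, but not in the lowest. In the lowest bin the median rank was 67.8 and 80.2 at Kcn genes, against 79.1 and 79.4 at all genes. In the middle bin it was 83.1 and 85.5 at Kcn genes, against 92.6 and 94.2, and in the highest bin 89.7 and 88.3 at Kcn genes, against 97.1 and 97.5. With CpG content taken at the TSS with the highest value, an alternative chosen after seeing the data, the lowest bin had medians of 72.0 and 81.6 at Kcn genes, against 64.0 and 64.6 at all genes, so there the direction in replicate 1 turned. Each annotated TSS adds a window, so the shares are also given by the number of TSSs. Over all genes the median CpG value rose with that number, from 0.279 (1 TSS) to 0.404 (2 to 3) and 0.682 (4 or more). The part of each in the shares was not tested. Among genes with 1 TSS, 84.2% of Kcn genes were open in both replicates, against 38.6% of all genes. The shares were 80.5% and 57.9% for genes with 2 to 3 TSSs, and 91.2% and 90.7% for genes with 4 or more, the Kcn share first in each pair.

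Voltage-gated pores were open at 29 of 30 genes in both replicates (96.7%), with median ranks of 82.7 and 83.6. Kcnh2, the ERG channel that repolarizes heart muscle, stood at 96.7 and 98.7 with 7 promoter peaks in replicate 1 and 5 in replicate 2. Kcna3, best known from lymphocytes, stood at 95 and 94.2, and Kcnh1, the ether-à-go-go channel, at 94.2 in both replicates. Kcnb2 and Kcnh5 had ranks of 94.2 and 92.2, and of 92.1 and 93.7. The lowest ranks among these pores were those of Kcnd1, an A-type channel, at 35.2 and 53.0, and of Kcnq1, which acts mainly in heart and epithelia, at 59.3 and 46.0. Kcna10, known from vestibular hair cells, was the 1 voltage-gated gene without a promoter peak.

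Several voltage-gated genes known from the mature retina were already open. Kcnc1, known from fast-firing ganglion and starburst amacrine cells, had a rank of 91.1 in both replicates. Kcna1 and Kcna2, channels of axons, had 83.6 and 87.8, and 81.7 and 83.6. Kcnd2, an A-type channel, had 80.7 and 76.6. Kcnq3, a subunit of the M channel that dampens repeated firing, had 92.1 and 91.5. Kcnq5, which can also join M channels, had the highest lower rank of its subfamily, at 93.6 and 91.8.

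All 10 silent subunit genes were open in both replicates, with lower median ranks of 73.8 and 80.8. Kcnf1 (93.0 and 94.5) and Kcns2 (92.3 and 92.8) led them, followed by Kcnv1 at 85.4 and 86.9. Kcnv2, the photoreceptor subunit whose loss in people causes a cone dystrophy, had 1 weak promoter peak in replicate 1 (rank 35.2, score 23) and a strongest peak of rank 57.7 (score 54) in replicate 2. The 4 Kcng genes lay between 62.9 and 74.4 in replicate 1 and between 69.4 and 86.9 in replicate 2.

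Inward rectifiers were open at 11 of 15 genes in both replicates, with median ranks of 84.5 and 85.8. Kcnj2, the classical rectifier that holds the resting potential of muscle and many neurons, had the highest ranks, 95.8 and 99.5. Kcnj11, the pore of the ATP-sensitive channel, had 94.2 and 94.0. Kcnj10, the main potassium channel of Müller glia, was open at 84.5 and 91.1 with 1 promoter peak in each replicate, and Kcnj13, a channel of the pigment epithelium, at 79.1 and 85.1. Kcnj14, also described in retina, had no promoter peak and no distal peak in either replicate. Kcnj1, the kidney channel ROMK, and Kcnj15 had no promoter peak either, and Kcnj16, a partner of Kcnj10, had one in replicate 2 only, of rank 78.3.

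Two-pore leak channels were open at 10 of 14 genes in both replicates, with median ranks of 75.7 and 78.3. Kcnk5, an acid-sensitive leak channel, led at 93.4 and 94.7, and Kcnk2 (TREK-1), opened by stretch, had 71.7 and 67.9. Kcnk7 had ranks of 29.3 and 27.6. Kcnk16, known from pancreatic islets, and Kcnk18, known from sensory neurons, had no promoter peak. Kcnk6 had one in replicate 2 only (66.3) and Kcnk9 in replicate 1 only (32.3, a score of 22).

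Channels opened by calcium, sodium or pH had the highest median ranks of the 6 roles, 88.5 and 86.9 over 7 open genes of 8. Kcnn2, Kcnn3 and Kcnt2 led them: the small-conductance calcium-activated genes Kcnn2 and Kcnn3 had 99.0 and 98.0, and 95.6 and 97.0, and the sodium-activated Kcnt2 had 94.0 and 98.2. The Kcnn2 peaks lay near the edge of the promoter window, with centres at -899 bp and -919 bp (upstream) from the nearest of its 7 TSSs. Kcnma1, the large-conductance (BK) channel, had 88.5 and 86.0. Its 5′ end, at position 24014491 of chromosome 14, lies in the lowest CpG bin. The ranked peaks, which start at 24004876 and 24004956, lay at another of its 14 TSSs, so that bin does not describe them. Kcnu1, a channel of sperm, was the weakest open promoter of all members, at 20.2 and 16.8. Kcnn4, known from blood and epithelial cells, had no promoter peak.

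Auxiliary subunits were open at 13 of 16 genes in both replicates, with median ranks of 76.3 and 84.6. Kcnab2, a subunit of Kcna channels with an oxidoreductase fold, had the highest lower rank of all 94 genes, 98.7 in replicate 1 and 99.7 in replicate 2. Its window is shared with the neighbouring gene Nphp4, and it was the 1 member whose strongest promoter peak also lay in the promoter window of another protein-coding gene. Among the other subfamilies Kcnip2 led the calcium-binding Kcnip genes (87.0 and 86.9), Kcnmb4 the BK subunits (93.6 and 86.5) and Kcne1 the small Kcne subunits (76.3 and 81.6). Kcne2, Kcne4 and Kcnmb3 had no promoter peak. Kcnrg, which is no channel subunit and is known to hinder the assembly of voltage-gated channels, had none either.

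**Figure D3:**
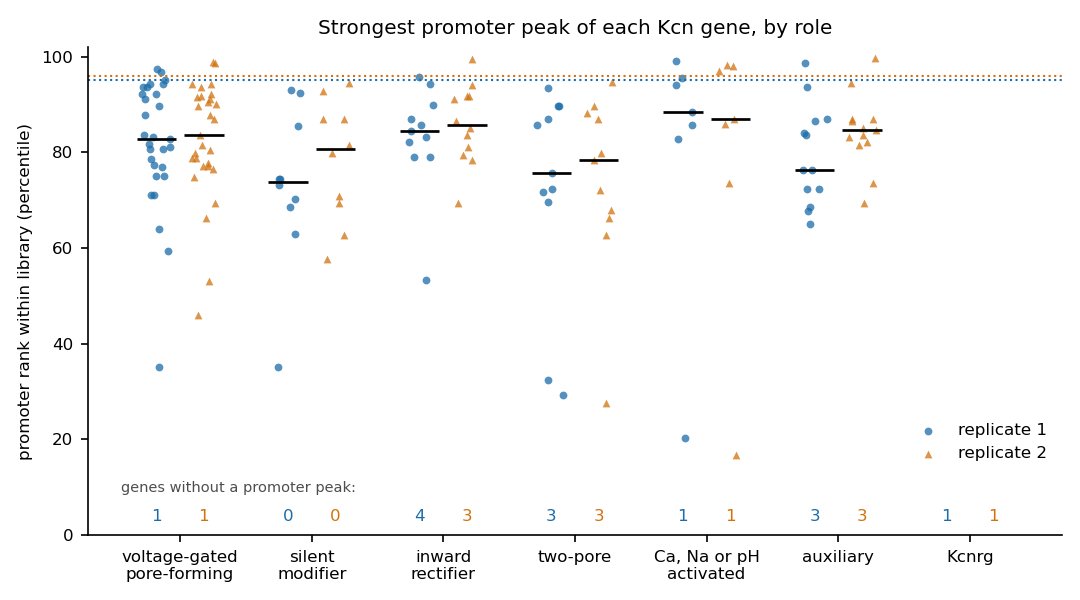
Promoter rank within the library (percentile, vertical axis) of each Kcn gene, by role (horizontal axis), for replicate 1 (blue circles) and replicate 2 (orange triangles); black lines are medians over open genes, digits at the bottom count genes without a promoter peak, and dotted lines mark the medians of all open protein-coding genes (95 and 95.9). Most open Kcn genes of each of the 6 channel roles lie below the dotted lines, and the lowest open gene is Kcnu1 at 20.2 and 16.8.

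The 11 genes without a promoter peak in either replicate all lay in the lowest CpG bin at their 5′ ends, with observed over expected values from 0.119 to 0.286. With CpG content taken at the TSS with the highest value, 10 of them did, and Kcnn4 did not. Of the 11, 9 had at least 1 distal peak shared by both replicates, against 86 of the 94 Kcn genes. No such share over all genes is given here. More distal peaks than the genome average in both replicates were found at 5 of the 11, against 18% of all genes without a promoter peak. With or without a promoter peak, they were found at 49 of the 94 Kcn genes and 35.3% of all protein-coding genes. Distal here means over 1 kb away from every TSS. Each distal peak was given to the coding gene whose TSS was closest, and it may act on another gene. The genome average is the length of genome nearest to the gene times the distal peaks per Mb of the library, 43.9 in replicate 1 and 61.0 in replicate 2. Kcna10 had 13 and 18 distal peaks where the average gives 2.61 and 3.63, Kcnrg 21 and 35 (15.2 and 21.1 by the average), and Kcne4 25 and 13 (16.3 and 22.7). Kcnk18 had a distal peak of ranks 94.2 and 93.4 at chr19:59239576-59239725, in intergenic sequence 20.4 kb downstream of its TSS.

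Distal peaks nearest to Kcn genes numbered 941 in replicate 1 and 1411 in replicate 2. The genome averages over the same stretches, 25.1 Mb in all, give 1101 and 1532, so the ratios were 0.854 and 0.921. The count in replicate 2 was 1.5 times that in replicate 1 for Kcn genes and 1.39 times for all genes. Kcn genes had a median of 7 and 10 distal peaks, against 2 and 2 for all genes, and a median of 0.100 Mb of nearest genome, against 0.0450 Mb for all genes. Counts were above the genome average in both replicates at 49 Kcn genes (52.1%), against 35.3% of all protein-coding genes. They were below it in both at 28 Kcn genes (29.8%), against 48.6% of all, and above it in 1 replicate at 17 (18.1%), against 16.1%. The 10 members with the longest stretches had 230 and 399 distal peaks where the average gives 536 and 744, and the other 84 had 711 and 1012 where it gives 566 and 787.

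Of the 10 longest, 9 were below the average in both replicates and Kcnma1 was above it in both. Of the other 84, 48 were above it in both, 19 below it in both and 17 above it in 1 replicate. No such shares over all genes with stretches of like length are given here. Whether this split is particular to Kcn genes was not tested. Kcnd2, with 514 kb of gene, had 10 and 17 (65.5 and 91.1 by the average), Kcnv1 had 10 and 17 (62.0 and 86.2), and Kcnt2 had 26 and 43 (81.6 and 113). The opposite was seen at Kcnd3, a relative of Kcnd2, which had 33 and 60 (18.4 and 25.5 by the average) and the widest margin over it, summed over both replicates. Kcnk1 had 24 and 29 (8.52 and 11.8), Kcnj6 had 31 and 39 (16.0 and 22.3), Kcna5 had 26 and 30 (10.5 and 14.6) and Kcnh2 had 22 and 19 (4.74 and 6.60). Kcng1 had 20 and 24 (7.32 and 10.2), and Kcnn3 had 15 and 23 (8.72 and 12.1). Kcnj10, with little genome nearest to it, had 6 in each replicate (1.04 and 1.44 by the average).

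In number, Kcnma1 came first with 52 and 76 distal peaks (44.3 and 61.6 by the average), and 42 of the 52 in replicate 1 lay within the gene. Kcnip4 had 29 and 65 (57.2 and 79.6 by the average), and Kcnj3 had 31 and 51 (57.0 and 79.2). Kcnh7 also had 31 and 51 (31.0 and 43.1), and Kcna4 had 28 and 46 (48.7 and 67.7). Kcnt2 had 26 and 43, and Kcnj2 had 22 and 43 (38.6 and 53.6). Kcnh1 had 26 and 31 (17.4 and 24.2). Kcnip4, Kcnj3, Kcna4, Kcnt2 and Kcnj2 thus had many distal peaks but fewer than the average in both replicates. Replicate 2 had more distal peaks at 71 members, the same number at 16 and fewer at 7, of which Kcne4 (25 in replicate 1, 13 in replicate 2) showed the widest difference. By role, with Kcnrg left out, the ratio to the average was highest for two-pore genes (1.42 and 1.53) and lowest for silent subunits (0.591 and 0.571). Within the silent subunits the Kcng genes stood at 1.75 and 1.78 and the Kcnv genes at 0.183 and 0.219.

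**Figure D4:**
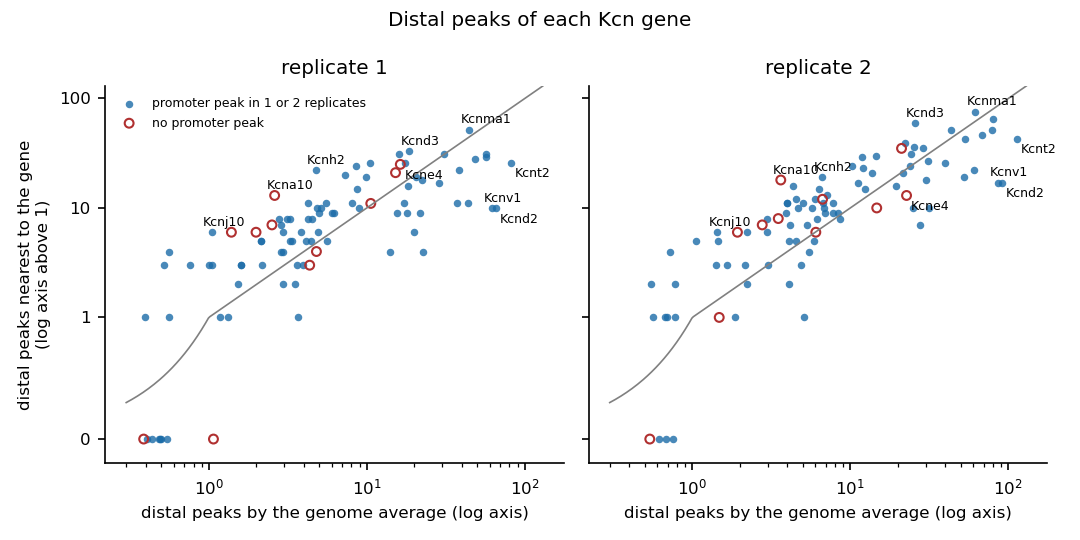
Distal peaks nearest to each Kcn gene (vertical axis, logarithmic above 1) against the number that the genome average gives for its length of nearest genome (horizontal axis, logarithmic), in replicate 1 and replicate 2; the line marks equal numbers, red rings are the 11 genes without a promoter peak and blue points the other 83. Kcnd3 (33 and 60 peaks) and Kcnh2 (22 and 19) lie above the line and Kcnd2 (10 and 17) and Kcnt2 (26 and 43) below it.

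Of the distal peaks, 39.1% in replicate 1 and 41.8% in replicate 2 lay within the Kcn gene they were given to, and 41.4% and 44.6% in an intron of some gene. They lay farther out than distal peaks in general, at a median of 44.4 kb and 47.1 kb from the nearest coding TSS, against 26.5 kb and 30.9 kb for all distal peaks. A rank of 90 was reached by 3.08% and 3.40% of Kcn distal peaks, against 3.33% and 4.55% of all distal peaks. The median rank of Kcn distal peaks was 43.2 and 41.1, against 43.2 and 44.4 for all distal peaks. Of Kcn promoter peaks, 9.06% and 9.93% had a rank of 90 or more, against 30.4% and 29.3% of all promoter peaks. A peak of the other replicate overlapped 74.7% of Kcn distal peaks in replicate 1 and 48.5% in replicate 2, against 71.2% and 49.9% of all distal peaks. For promoter peaks the shares were 73.9% and 70.9% at Kcn genes, against 79.1% and 67.8% at all protein-coding genes.

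Of the distal peaks shared by both replicates, 25 had a rank of 90 or more in both, and they fell to 21 Kcn genes. The 10 named here are the strongest of their genes, at most 1 per gene, in order of the lower rank. The first was the Kcnn1 peak shown above, 2.40 kb upstream of the TSS of that calcium-activated channel gene, with ranks of 98.3 and 98.4 and scores of 124 and 136. Next came a peak in an intron of Kcnq1 at chr7:143154016-143154165, 44.8 kb downstream of its nearest TSS, with ranks of 96.1 and 96.8, although the promoter ranks of Kcnq1 were 59.3 and 46.0. Peaks of ranks 94.2 and 97.3 lay 1.40 kb upstream of Kcnh8 and 390 kb upstream of Kcnh7, the second being the sequence shown above. Peaks in introns of Kcnk9 and Kcnab2 had 93.4 and 94.0, and 93.4 and 94.2. The list of 10 was completed by peaks nearest to Kcnk18, Kcns3 (93.2 and 95), Kcna5 (93.0 and 93.1) and Kcna6 (92.6 and 93.7).

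Several members lie beside each other, and neighbours did not always share a state. Kcna5, Kcna1 and Kcna6 on chromosome 6 span 208 kb and were all open, at 87.8 and 90, 83.6 and 87.8, and 77.4 and 79.9, yet Kcna5 had 26 and 30 distal peaks nearest to it while Kcna1 had 5 and 8. On chromosome 3, Kcna3 and Kcna2 were open and Kcna10, at the other end of the same 160 kb, was not. Kcnj2 was open at 95.8 and 99.5 while its neighbour Kcnj16 had a peak in replicate 2 only. Kcnj5, Kcnk5 and Kcne1 were open in both replicates, while their neighbours Kcnj1, Kcnk16 and Kcne2 had no promoter peak in either. Both members were open at Kcnj9 and Kcnj10 and at Kcnip1 and Kcnmb1. In the 8 clusters the gap between neighbours was at most 200 kb, so distal peaks there could belong to either gene.

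Parts of the REST site were found in shared peaks of 18 Kcn genes. No share over all genes stands beside this count, and the larger number of distal peaks per Kcn gene can raise it. In the sequence around the TSSs, whether or not in a peak, either part lay at 14 of 94 Kcn genes (14.9%). The share of all protein-coding genes was 9.07%. The left part, TTCAGCACC, lay in 5 of 204 shared Kcn promoter peaks (2.45%), against 0.441% of 30843 shared promoter peaks of all protein-coding genes. It lay in 11 of 703 shared Kcn distal peaks (1.56%), against 0.481% of 85078 shared distal peaks of all genes. The right part, GGACAGCGC, lay in 2 Kcn promoter peaks (0.980%) and 5 Kcn distal peaks (0.711%), against 0.561% and 0.192% of all. All these peaks are 150 bp wide, and the numbers of Kcn peaks behind the shares are small. No Kcn peak held the left part followed on the same strand by the whole right part.

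The left part with GGACA after 2 bases, a search chosen after the sequences had been seen, was present in 1 Kcn promoter peak (0.490%) and 6 Kcn distal peaks (0.853%), against 0.107% and 0.152% of all. These are the Kcnh4, Kcnh2, Kcnd3 and Kcna3 peaks printed above and distal peaks nearest to Kcnab2, Kcnip2 and Kcnk9. The Kcnh2 peak lay 5.99 kb upstream of its TSS and had ranks of 92.1 and 92.5, and the Kcnh4 promoter peak had 80.7 and 86.9. The Kcnd3 peak had 78.5 and 83.1, and the Kcna3 peak had 61.7 and 62.7. The Kcns2 peak (92.3 and 92.8), the strongest promoter peak of that gene in replicate 1, held the left part alone, as did a promoter peak of Kcnc1 (91.1 and 89.1). A match is a description of the letters and does not show that REST is bound.

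Shares of the other words lay on either side of those of all peaks, and no test was made. CCGGAAG, the ETS word, was in 2 Kcn promoter peaks (0.980%), against 7.07% of all promoter peaks. TGACGTCA (CRE, bound by CREB) was in 0.490%, against 1.58%, and the CTCF core CCACNAGGG in 0.490%, against 1.51%. TAATTA, the homeodomain word, was in 0 of 204 Kcn promoter peaks, against 1.40% of all, and in 6.83% of Kcn distal peaks, against 6.40% of all distal peaks. The GC box GGGCGG was in 36.3% of Kcn promoter peaks, against 38.4%, and ATTGGC in 7.84%, against 9.57%. The E-box CAGCTG was in 13.7% of Kcn promoter peaks and 18.1% of Kcn distal peaks, against 10.7% and 16.2% of all, and the E-box CAGATG in 7.84% and 16.5%, against 7.72% and 17.3%. TAATCC, the word of Otx2 and Crx, was in 3.43% and 6.40%, against 2.90% and 5.87%.

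**Figure D5:**
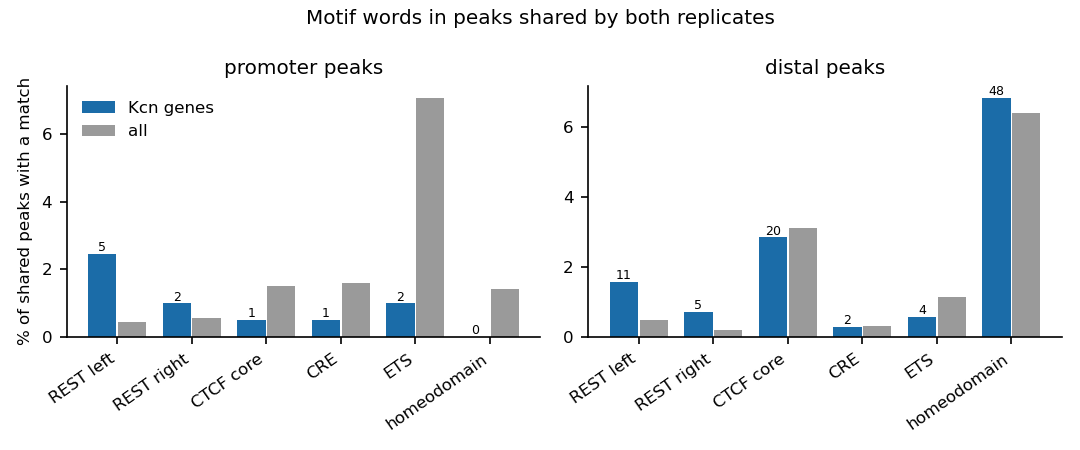
Share of peaks shared by both replicates that hold a motif word (percent, vertical axis), by word (horizontal axis), for promoter peaks and distal peaks, at Kcn genes (blue, left bar of each pair, with the number of Kcn peaks above it) and over all genes (grey). The left REST part reached 2.45% of Kcn promoter peaks against 0.441% of all, and the ETS word 0.980% against 7.07%.

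Genes of related function were set beside the Kcn genes. Of 40 calcium and sodium channel genes, 36 were open in both replicates (90%), with median ranks of 85.1 and 89.6 and 1.38 and 1.41 times the genome average of distal peaks. Of 42 glutamate, GABA and glycine receptor genes, 36 were open in both (85.7%), with ranks of 86.4 and 86.9 and ratios of 0.588 and 0.667. Their median ranks, like the 82.7 and 84.1 of Kcn genes, were below the 95 and 95.9 of all open genes. The left REST part was in 3.03% of shared promoter peaks of the calcium and sodium channel genes and 5.68% of those of the receptor genes, against 2.45% at Kcn genes. In distal peaks it was in 1.87% and 0 of 319, against 1.56% at Kcn genes. The left part with GGACA after 2 bases was in 1.01% and 2.27% of the promoter peaks of these groups, against 0.490% at Kcn genes, and in 1.07% and 0 of the distal peaks, against 0.853%. The right part was in 0 of 99 and 2.27% of the promoter peaks of these groups, against 0.980% at Kcn genes. In distal peaks it was in 0.267% and 0.313% (1 peak in each group), below the 0.711% of Kcn genes. In each of the 4 measures of the left part, alone or with GGACA, at least 1 of the related groups had a higher share than the Kcn genes. Low shares of other words in promoter peaks were not particular to Kcn genes either. The ETS word was in 0 of 99 promoter peaks of the calcium and sodium channel genes and 3.41% of those of the receptor genes. In the same order, CRE was in 1.01% and 0, the CTCF core in 1.01% and 0, and TAATTA in 0 and 1.14%. Each of these shares was below that of all promoter peaks. Of 24 other genes that handle potassium, such as the sodium pump genes, 22 were open in both replicates, with median ranks of 89.2 and 91.8.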

How the data were processed

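Peaks and hotspots were called by the authors in each library on its own and deposited on mm10, per the labels and the deposited file lists. Which aligner and caller were used is not given in the sources used here. Scores of the deposited peaks, whose meaning is not stated, served only for ranks within a library. They are written with a decimal point in 12.1% and 7.80% of peaks, which were kept. The authors' hotspots carry a deposited −log10 false discovery rate of 1.30 to 100. Exact duplicate lines (34 and 56) were removed. GENCODE M21 gave the TSSs. Computation used Python 3.11.15, numpy 2.4.6, pandas 2.3.3, scipy 1.17.1 and pysam 0.24.0, and the assignment of peaks to genes was tested on simulated data. Motif words were matched in peaks of replicate 1 that overlap a peak of replicate 2 by at least 1 bp.

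With 1 group of 2 replicates there was no contrast and no test, so values are given per library. The members and lists were chosen with earlier results of these data known. Genes named were the 15 with the highest lower promoter rank, all without a promoter peak or with one in 1 library, the 10 with the most distal peaks and the 10 with the widest margin over the genome average, the 10 strongest shared distal peaks, known retinal genes and the leader of each subfamily. Some genes that this rule takes are not reported here by name. The lowest ranks, the clusters and further genes were picked after their values were seen. Alternatives covered the promoter window, the choice of TSS, the stronger part of the peaks, decimal scores, hotspots, the distal limit, the overlap and each replicate left out.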

Additional observations from a re-analysis of the deposited data

How the results depend on the processing

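Over all 94 members, the count of 80 Kcn genes open in both replicates ranged from 75 (stronger 50% of the peaks) to 83 (2000 bp window), with 77 at the 5′ end alone and 80 with hotspots or without decimal scores. Among the 77 pore-forming and silent subunit genes alone it was 67 (87.0%). The median promoter rank, 83.4 as a mean of both replicates, was 85.0 with the 2000 bp window. The mean of 1176 distal peaks became 552 when only peaks inside the gene body counted and 486 with the stronger 50% of the peaks. The median per gene, 8.50, became 5 beyond 10 kb of any TSS, 2.50 inside the gene body and 3.50 with the stronger 50%. The overlapped share of promoter peaks, 72.4%, was 57.9% when an overlap of 50% of a peak was asked. These definitions count fewer peaks by construction. The lowest bin was also formed from CpG content at the TSS with the highest value, an alternative chosen after seeing the data. There 12 Kcn genes were open in both replicates (52.2%, against 17.1% of all genes). The median CpG value at the 5′ end in that bin was 0.236 at Kcn genes, against 0.165 at all genes. Leaving out each replicate in turn gave 81 to 82 open genes, a median rank of 82.7 to 84.1, a total of 941 to 1411 and a median per gene of 7 to 10 distal peaks, and overlapped shares of 70.9% to 73.9% for promoter peaks and 48.5% to 74.7% for distal peaks. No paired analysis was possible because there is only 1 group. Without read numbers, neither the depth of a library nor a limit of detection can be given.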
